A study of Mus musculus with 10 samples.

Results

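Expression in mouse embryonic stem (ES) cells that lack Tet1 alone (T1KO) was set against that of wild-type (WT) ES cells. Only the Cy3 channel of 2-colour Agilent oligonucleotide arrays was used. The lines of both groups are labelled male, but Y-linked transcripts of T1KO line 99, given below, went against that label. Of the 10 arrays of the study, 7 entered this comparison: 2 arrays each of T1KO lines 99 and 65, 2 of WT line 6 and 1 of WT line 92. ES cells are self-renewing cells of the early embryo that can give rise to all tissues of the body. The lines came from mice of mixed C57BL/6 background and were grown with LIF on irradiated feeder cells. Before RNA was taken, the feeders had been removed by preplating on gelatin, per the labels. The other genotypes of the study were double knockouts of Tet1 and Tet2 (DKO) and 1 Tet2 knockout line (T2KO 16), which were hybridised in Cy5. The Cy3 channels of female WT lines 7 and 94 (3 arrays) entered the fit only for the estimate of spread between lines. Cy5 was ignored on the line 99 arrays, since the submitters marked that RNA as excluded for a false genotype. Which part of Tet1 was deleted is not given in the sources used here.

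The replicate was the line, so the comparison rests on 2 T1KO and 2 male WT lines, and repeat arrays of a line were averaged first. Whether the lines of 1 genotype came from separate embryos is not stated beyond their being independent lines, and p-values measure the spread between them. All male WT arrays lay on 1 slide, all female WT arrays on another and all T1KO arrays on the third. Slide and Tet1 genotype therefore cannot be told apart.

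The Tet genes code for a family of enzymes that convert methylated cytosine to its hydroxymethylated form, a step on the path back to unmethylated cytosine. Tet1 and Tet2 are the forms known for high expression in mouse ES cells, and Tet1 binds preferentially near CpG-rich promoters. There it is found with the Sin3a-Hdac co-repressor and with Polycomb, so that its loss is known to be able to raise as well as lower transcripts.

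Of the 3 Tet1 probes, the one farthest upstream on the minus strand lies at chr10:62301856-62301915 (mm9, from the array's design). Its sequence is shown because it reports Tet1 transcript far upstream of the brightest probe, which lies at chr10:62274448-62274507. Which exon or UTR the probes lie in was not analysed here.
Tet1 A_55_P2123002: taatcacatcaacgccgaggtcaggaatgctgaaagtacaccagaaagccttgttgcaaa

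Tet1 was lower in both T1KO lines at all 3 of its probes. On the log2 intensity scale, the brightest probe read 12.95 in WT 6, 12.65 in WT 92, 12.64 in WT 7 and 12.65 in WT 94. In T1KO 99 and T1KO 65 it read 10.85 and 10.72, so that the genotypes did not overlap. The difference was -2.01 (SE 0.136), that is 4.03-fold lower, and of all genes it had the smallest unadjusted p of the limma fit (9.83e-06). Its adjusted p was 0.1698 with limma, which misses the threshold of 0.05. The probe shown above differed by -1.94 on the same scale, with 11.46 and 11.20 in male WT against 9.53 and 9.25 in T1KO. At the third probe the difference was -1.38. All 3 probes remained well above background on the 4 T1KO arrays.

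The other members of the family showed no difference of this size. Tet2 levels were 11.90 and 11.37 in male WT and 11.42 and 11.28 in T1KO (difference -0.29, limma adjusted p = 0.5258). The other Tet2 probes differed by -0.19 and 0.11. Tet3 was dim, at 8.49 and 8.51 in male WT and 8.31 and 8.34 in T1KO (difference -0.18, limma adjusted p = 0.4298). Its other 2 probes were not above background on any array.

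**Figure D1:**
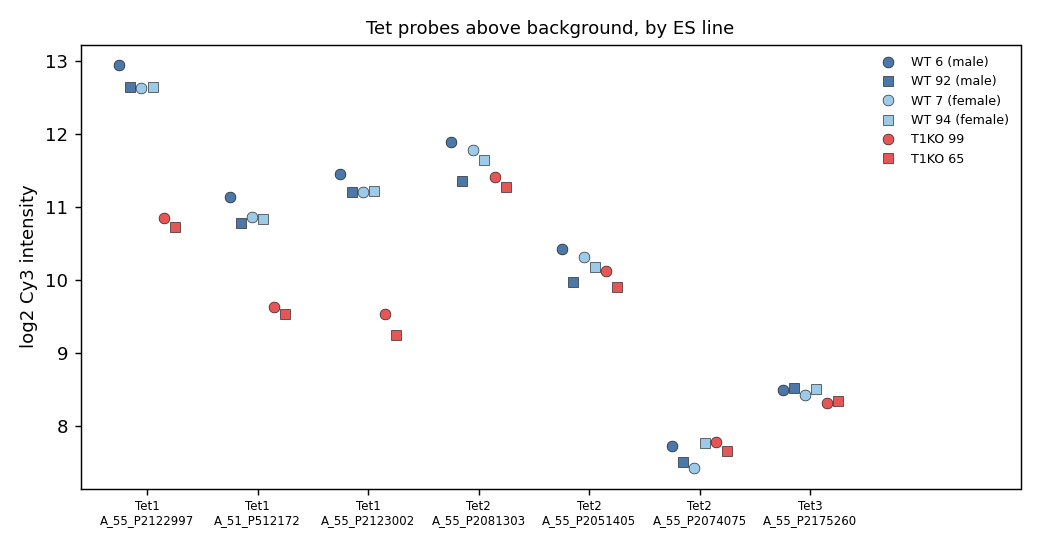
Log2 Cy3 intensity of each Tet probe above background (x axis, by gene and probe) in the 6 ES lines, 1 point per line. At the 3 Tet1 probes both T1KO lines lie below all 4 WT lines, with differences from male WT of -2.01, -1.38 and -1.94, while the T1KO minus male WT differences at the Tet2 and Tet3 probes lie between -0.29 and 0.11.

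Y-linked transcripts went against the male label of T1KO line 99. Eif2s3y, a Y-linked translation initiation factor gene, read 9.10 and 9.20 in male WT, 10.58 in T1KO 65 and 6.80 in T1KO 99. The female WT lines read 6.34 and 6.85, and the probe was above background on 0 of the 2 arrays of line 99. Ddx3y, a Y-linked RNA helicase gene, read 8.78 and 8.35 in male WT, 9.85 in T1KO 65 and 7.33 in T1KO 99, against 6.78 and 7.01 in female WT. One probe of Ube1y1 followed the same order, at 7.58 and 8.09 in male WT, 8.18 in T1KO 65 and 7.02 in T1KO 99, against 6.27 and 6.49 in female WT. At Ddx3y and this probe, T1KO 99 thus lay between the female and the male WT lines. Ddx3y was above background on all 4 T1KO arrays and 1 of 3 female WT arrays. The Ube1y1 probe was so on 3 of the 4 T1KO arrays and 0 female WT arrays. The other, brighter probe of Ube1y1 did not separate male from female WT lines. Both probes of Xist were not above background in any line. Tet1 itself was as low in line 99 as in line 65. Levels of both lines are therefore given for the genes described in most detail, and the main counts also without line 99.

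**Figure D2:**
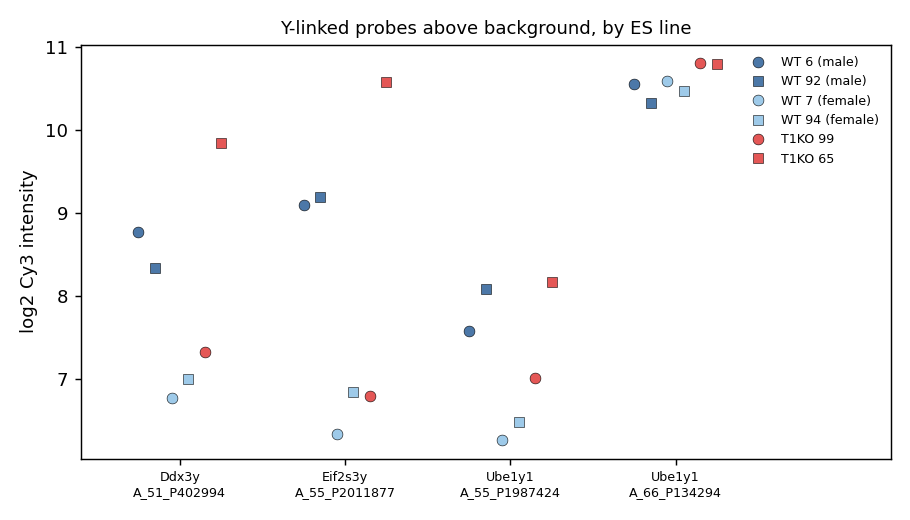
Log2 Cy3 intensity of the 4 Y-linked probes above background in the 6 ES lines, 1 point per line. At Ddx3y, Eif2s3y and the first Ube1y1 probe, T1KO 99 (6.80 at Eif2s3y) lies nearer to the female WT lines and T1KO 65 (10.58) with or above the male WT lines.

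Signal quality was similar between arrays, with 55.2 to 61.5% of gene spots well above background, 90 to 184 outlier spots and 0 saturated spots per array. Repeat arrays of a line correlated at r = 0.998 to 0.999 across genes, and 4 to 11 genes differed by at least 1 on the log2 scale between them. The lines had the profile of ES cells: Pou5f1 read 14.87 to 15.35 and Nanog 15.18 to 15.61 over the 6 lines. Fibroblast genes were also bright, with Col1a1 between 12.53 and 13.54. The summed level of the 34 tested fibroblast markers (log2 of summed intensity) was 17.80 and 18.42 in male WT and 18.14 and 17.98 in T1KO. It was therefore between the male WT values in both T1KO lines. Some spots of the T1KO slide lay next to very bright local background, 4 in line 99 and 9 in line 65, against 0 in the WT lines. Among genes at least 1 apart this touched Vapb, Fbxo33 and Inpp5b, which differed by -1.92, -1.40 and -1.03. Leaving out the affected spot gave 0.13, -0.45 and 0.34, and these genes are not described further, though they remain in the counts of lower genes.

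No gene passed the test. Of 17271 genes tested, 0 (percentage called, 0%) had a limma adjusted p under 0.05, and Tet1 had the smallest. At an unadjusted p under 0.05 there were 2555 genes, 1188 higher (6.88%) and 1367 lower (7.92%), where 5% of 17271 is 864. With line 99 left out, 1623 genes had such a p and 0 passed the threshold. In the same fit, female WT against male WT gave 76 genes (0.44%), all higher in female WT, and they include 15 with a gene name. That count did not hold with any of the 4 lines labelled male left out. None of the values that follow is therefore called a change; they are levels and differences.

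Few genes differed by a large amount. A difference of at least 1 on the log2 scale, that is 2-fold, was seen for 66 genes higher (0.382%) and 66 lower (0.382%) in T1KO, of which 99 had a gene name. Among the 66 higher genes, 43 reached this size in line 99, 49 in line 65 and 26 in both, so that the 26 are in each of the first counts. For the 66 lower genes the same counts were 48, 52 and 34. Both T1KO lines lay above all 4 WT lines at 40 of the higher genes (0.232%) and below all 4 at 48 of the lower genes (0.278%). Without line 99, 115 and 88 genes met this rule. It was met by 72 and 71 genes without T1KO 65, by 28 and 39 without WT 6 and by 145 and 111 without WT 92. With a line left out, the rule asks fewer lines to be apart and the mean of that genotype rests on 1 line. Those counts are therefore not comparable with 40 and 48. Over all sizes, 2447 genes (14.2%) lay above and 2557 (14.8%) below every WT line in both T1KO lines. Against the male WT lines alone, the shares were 24.3% and 26.8%.

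At least 1 apart were 132 genes between the genotypes, and lines of 1 genotype were that far apart at more genes. T1KO 65 and T1KO 99 were at least 1 apart at 157 genes, WT 92 and WT 6 at 307, and WT 94 and WT 7 at 364. These are differences of single lines, whereas the T1KO minus WT difference is one of means of 2 lines. The SD over genes was 0.286 for T1KO 65 minus 99, 0.336 for WT 92 minus 6 and 0.295 for T1KO minus male WT. Just inside the limit were Cldn3 and Hyi (1.00) and Cd3eap (-1.01), and just outside Bin1 (0.99), Ttll11 (0.99) and Gm7676 (-0.998).

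The higher gene with the greatest difference was Gm11559, a predicted gene that lies between Krtap4-16 and Krtap9-1 in a cluster of keratin-associated protein genes on chromosome 11. Its probe (chr11:99726135-99726194, mm9) read 8.81 and 8.63 in male WT and 9.38 and 8.93 in female WT. In T1KO 99 and 65 it read 11.87 and 11.28. The difference was 2.86 (SE 0.246), that is 7.26-fold, with a limma adjusted p of 0.1748. A second probe of the gene, at chr11:99726559-99726618, was not above background on any array and differed by 0.06. T2KO 16 over T1KO 65 on the same arrays gave 0.12, so the T2KO line read as high as T1KO 65. The 4 DKO over WT pairs gave -0.0090 to 0.147.

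Among the 12 higher genes of smallest unadjusted p, the X-linked genes Fthl17a and Rnf128 came next. Galnt6 (1.88), 5830417I10Rik (1.80) and Tesc (1.70), on other chromosomes, differed by more, but their T1KO lines overlapped WT lines. Fthl17a, a ferritin heavy chain-like gene, read 8.26 and 8.96 in male WT, 8.84 and 8.87 in female WT and 10.14 and 10.20 in T1KO (difference 1.56, SE 0.231). Rnf128, which encodes the transmembrane E3 ubiquitin ligase GRAIL, read 11.76 and 12.33 in male WT, 11.65 and 12.26 in female WT and 13.49 and 13.54 in T1KO (difference 1.47, SE 0.267). In both genes the T1KO lines lay close to each other and above every WT line. The limma adjusted p was 0.1748 and 0.1947. Both genes were also higher in female DKO lines than in their WT partners, Fthl17a by 1.45 and 0.84 and Rnf128 by 2.51 and 0.93. The further Fthl17 copies on X, looked at after their values were seen, did not separate the groups. Fthl17f, for example, read 12.01 and 9.99 in male WT, 13.90 and 12.91 in female WT and 12.03 and 12.46 in T1KO. These copies are similar in sequence, so their probes may share signal.

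Because Tet enzymes act on cytosine in CG dinucleotides, the 250 bases before the start of 4 of these genes are shown, with each CG in capitals (RefSeq, GRCm38.p6, plus strand, a build other than that of the probes). They are the 3 higher genes just described and Celsr3, a lower gene described further on. On these windows, CG was searched by its letters on the given strand, and it reads the same on the other.
Gm11559 chr11:99864226-99864475: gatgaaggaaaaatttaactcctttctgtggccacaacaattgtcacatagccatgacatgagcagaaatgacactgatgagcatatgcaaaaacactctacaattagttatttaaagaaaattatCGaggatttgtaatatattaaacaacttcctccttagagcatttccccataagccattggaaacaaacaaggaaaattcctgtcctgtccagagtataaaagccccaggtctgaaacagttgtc
Fthl17a chrX:85249427-85249676: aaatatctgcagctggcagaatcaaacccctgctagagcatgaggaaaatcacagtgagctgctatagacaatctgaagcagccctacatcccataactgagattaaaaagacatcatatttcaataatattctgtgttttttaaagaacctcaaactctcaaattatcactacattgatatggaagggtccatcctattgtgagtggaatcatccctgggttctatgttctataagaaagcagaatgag
Rnf128 chrX:139610370-139610619: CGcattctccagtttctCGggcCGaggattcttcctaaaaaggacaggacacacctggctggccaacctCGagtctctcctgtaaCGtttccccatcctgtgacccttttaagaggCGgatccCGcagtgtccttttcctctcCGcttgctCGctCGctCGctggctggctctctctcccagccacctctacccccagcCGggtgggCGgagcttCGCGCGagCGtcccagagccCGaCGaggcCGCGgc
Celsr3 chr9:108825795-108826044: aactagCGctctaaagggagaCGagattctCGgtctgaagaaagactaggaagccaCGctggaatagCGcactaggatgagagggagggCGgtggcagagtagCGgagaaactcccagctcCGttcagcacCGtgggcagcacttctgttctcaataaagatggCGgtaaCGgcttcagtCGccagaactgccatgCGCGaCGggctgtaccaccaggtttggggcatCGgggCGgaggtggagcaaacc

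The window before Rnf128 holds 21 CG, a number that 16.3% of 32851 promoters of the RefSeq table reach or exceed, and that before Celsr3 holds 17 (23.5%). The windows before Fthl17a and Gm11559 hold 0 and 1 CG (100% and 92.1% reach or exceed these). Genes with high and with low CG content thus stood among the highest. Of the named genes at least 1 higher and lower, 63% and 73.3% had an entry in that table, under the 80% needed, so a comparison of CG content between the sets is void and is not given.

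Eomes, a T-box transcription factor of trophoblast and early mesoderm, read 8.19 and 8.53 in male WT, 8.54 and 8.63 in female WT and 9.61 and 9.28 in T1KO (difference 1.08, SE 0.170, limma adjusted p = 0.18). Its second probe differed by 0.56. Pdgfa, the A chain of platelet-derived growth factor, read 13.47 and 13.69 in male WT, 14.03 and 14.03 in female WT and 14.95 and 14.48 in T1KO (1.13), and its second probe differed by 1.02. Evpl, which encodes the plakin envoplakin, read 10.13 and 10.12 in male WT and 11.00 and 11.30 in T1KO (1.02). Mpzl2, an adhesion molecule of the immunoglobulin family, read 12.33 and 11.85 against 13.14 and 13.16 (1.06). For these genes both T1KO lines lay above all 4 WT lines.

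The remaining higher genes of the rule have varied roles. Sgpl1, the sphingosine-1-phosphate lyase, read 11.59 and 12.02 in male WT and 12.85 and 13.09 in T1KO (1.17), with WT 7 just below them at 12.66. Cables1, an adaptor of cyclin-dependent kinases, read 9.34 and 9.52 against 10.71 and 10.41 (1.13). Dab1, the intracellular adaptor of reelin signalling, read 9.85 and 9.35 against 10.69 and 10.80 (1.14). C1qtnf4, a secreted C1q-related protein, read 8.60 and 8.41 against 9.51 and 9.58 (1.04), and Hyi, a hydroxypyruvate isomerase, 10.80 and 11.26 against 11.99 and 12.08 (1.00). All 12 had limma adjusted p-values between 0.1748 and 0.2245. A further 2 probes without a gene name met the same rule.

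**Figure D3:**
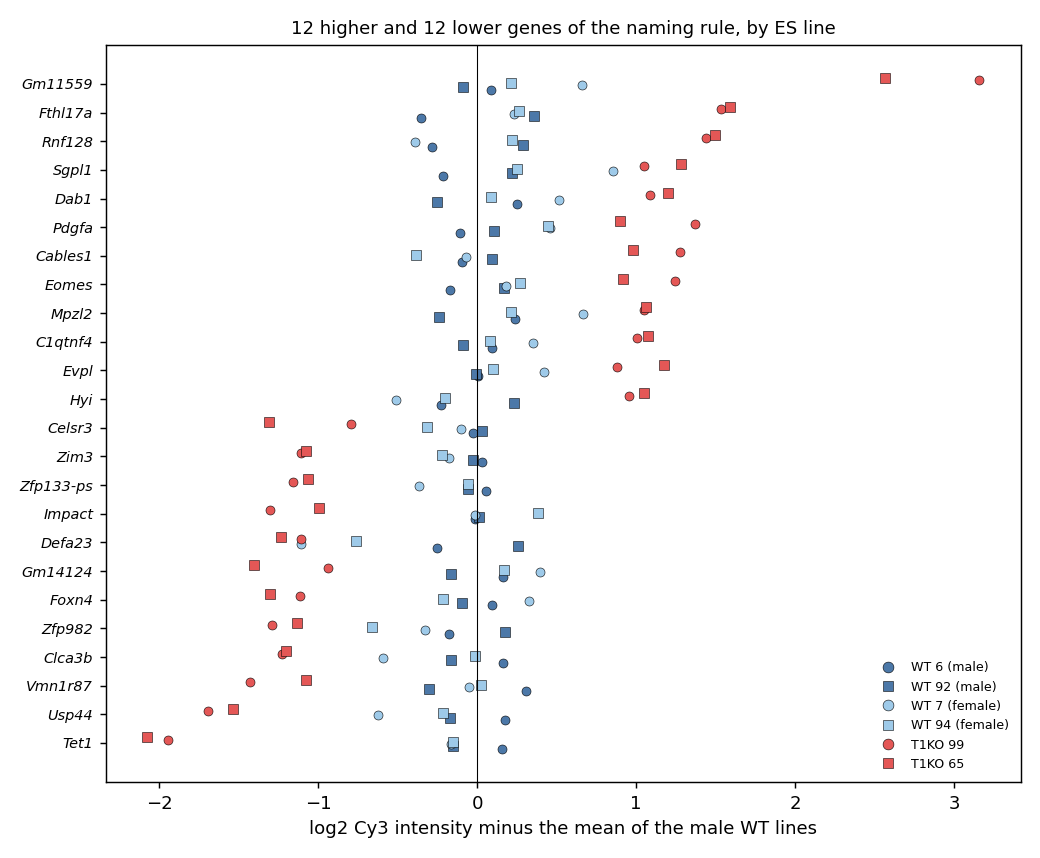
Log2 Cy3 intensity of the 12 higher and 12 lower genes of the naming rule minus the mean of the male WT lines (x axis), 1 point per line. Mean T1KO differences run from 2.86 (Gm11559) down to -2.01 (Tet1); Defa23 is the gene whose T1KO points overlap a female WT line.

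Besides Tet1, Usp44 had the greatest difference among the 12 lower genes. Usp44 encodes a deubiquitinase of histone H2B that also acts at the mitotic checkpoint. Its probe (chr10:93310949-93311008, mm9) read 8.90 and 8.55 in male WT, 8.10 and 8.51 in female WT and 7.03 and 7.18 in T1KO, a difference of -1.62 (SE 0.191, limma adjusted p = 0.1748). Both female DKO lines were also lower than their WT partners, by -0.72 and -1.33, and T2KO 16 over T1KO 65 was 1.99. Celsr3, an atypical cadherin of planar cell polarity whose promoter is shown above, read 9.35 and 9.40 in male WT and 8.58 and 8.07 in T1KO (-1.05). Its female DKO over WT ratios were -1.48 and -0.93. Foxn4, a forkhead transcription factor of neural and retinal progenitors, read 11.12 and 10.93 against 9.91 and 9.73 (-1.21), with -1.37 and -0.45 in the female DKO pairs. Impact, an imprinted gene whose product restrains the kinase Gcn2, read 14.01 and 14.04 against 12.72 and 13.03 (-1.15).

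Among the lower genes of the naming rule were several named as zinc finger genes or pseudogenes. Zim3 read 7.74 and 7.69 in male WT and was not well above background on any of the 4 T1KO arrays. In the main setting it was therefore at least 2.05-fold lower. This bound sets the male WT mean against the lowest signal of probes well above background on each T1KO array, or the probe's own signal where that was higher. Under the other settings the Zim3 difference lay between -3.53 and -0.72. Zim3 was tested only through its WT signal, so its place among the lower genes is no support. Its 4 DKO over WT pairs gave -0.14 to 0.15. Zfp982 read 10.95 and 11.30 in male WT and 9.83 and 9.99 in T1KO (-1.21). Gm14124 read 9.34 and 9.01 against 8.23 and 7.77 (-1.17), and Zfp133-ps, a pseudogene by its name, 9.41 and 9.30 against 8.20 and 8.29 (-1.11). Zfp985, Zfp967 and Zfp931, chosen after their values were seen, differed by -1.20, -1.07 and -1.13. Both T1KO lines lay below all 4 WT lines there, as at 14.8% of all genes. Zinc finger genes were not counted as a set, so these picked genes are no support for a difference of the family. Other probes differed less, by -0.13 and -0.35 for Zfp967 and -0.16 for Zfp931, and there T1KO overlapped WT. The second probe of Gm14124 differed by -0.47, below every WT line. In the female DKO pairs these genes had no common sign; Zfp133-ps, for example, gave 0.74 and 0.63. Members of such families are similar in sequence, and their probes may share signal.

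The other lower genes of the rule have varied roles. Defa23, an alpha-defensin of the gut on chromosome 8, read 8.77 and 9.28 in male WT and 7.92 and 7.79 in T1KO (-1.17), but female WT 7 read 7.91 and so overlapped T1KO 99. Its second probe differed by -0.78 and overlapped too. The neighbouring copies Defa3, Defa40 and Gm15292, chosen after their values were seen, differed by -1.33, -1.01 and -1.06 and may share signal with it. At Gm15292 and at another Defa3 probe (-1.02), T1KO overlapped WT 7. Defa40 was above background on 3 of the 4 T1KO arrays and was tested through its WT signal, so its lower level is no support. Vmn1r87, a vomeronasal receptor gene, read 9.30 and 8.69 against 7.56 and 7.91 (-1.25), and Clca3b, of the chloride channel accessory family, 9.10 and 8.77 against 7.70 and 7.73 (-1.22). The 4 DKO over WT pairs gave 0.096 to 0.233 for Vmn1r87 and -0.759 to 0.059 for Clca3b. For Defa23 they gave -1.695 to -0.16. All 12 had limma adjusted p-values between 0.1698 and 0.1947, and 9 probes without a gene name met the same rule.

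Genes listed by name because they had stood out in the DKO lines of this study varied in how far apart their T1KO lines were. The male DKO over WT ratios use the same male WT signal as this comparison. Genes chosen partly through that signal lean towards the same sense in T1KO by the choice alone. A sign shared with DKO is therefore no support for these genes. Tesc, the gene of a calcium-binding protein, read 8.98 and 9.12 in male WT, 11.66 in T1KO 99 and 9.83 in T1KO 65, which overlapped WT 94 at 9.88 (difference 1.70). Sall2, a zinc finger transcription factor, read 8.95 and 9.01 in male WT and 9.62 and 10.54 in T1KO (1.099), above every WT line. Hesx1, a homeobox gene of the anterior neural plate and pituitary, read 9.76 and 9.65 in male WT and 9.08 and 7.91 in T1KO (-1.21). Pnp2, a purine nucleoside phosphorylase gene, read 11.22 and 9.80 in male WT, 9.93 in T1KO 99 and 6.89 in T1KO 65 (-2.10), and was above background on 2 of the 4 T1KO arrays. Dazl, a germ cell RNA-binding protein gene, and Ankrd37, a hypoxia-responsive gene, differed by 0.10 and -0.11.

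Trophectoderm markers had mostly positive differences, with none past the test. Trophectoderm is the outer layer of the blastocyst that forms the placenta. Of 23 tested markers, 0 passed the limma threshold, 4 were higher (17.4%) and 0 lower at an unadjusted p under 0.05, against 6.88% and 7.92% of all genes. Without T1KO 99, 2 were higher (8.7%, against 4.49% of all genes in that fit). A positive difference was seen for 21, against 8371 of all 17271 genes. The 4 were Eomes, given above, Hand1, Fgfr2 and Dlx3. The list's median difference was 0.38, against -0.0091 over all genes, and 5 markers lay above every WT line in both T1KO lines (21.7%, against 14.2% of all genes). Hand1, a basic helix-loop-helix factor of trophoblast giant cells and heart, read 6.90 and 7.34 in male WT, where 1 of 3 arrays was above background, and 8.08 and 7.91 in T1KO (0.88). It was tested only because it was above background in T1KO, so its place among the 4, and among the mesoderm genes below, is no support. The same holds for Sox17, Lhx2, Calcr and Hoxa6 in the lists that follow and, with T1KO as the dim group, for Pax6, Slc25a31 and Ifit2. Cdx2, the factor that specifies trophectoderm, read 7.50 and 7.88 in male WT and 7.97 and 8.16 in T1KO (0.37). Elf5 was on the array and not above background on all arrays of either group, so it was not tested.

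The trophectoderm median was positive in both T1KO lines, 0.44 in line 99 and 0.47 in line 65 against the mean of male WT, and the WT lines were apart too, at -0.22 for WT 6 and 0.22 for WT 92. With WT 6 left out the median difference was 0.099, and with WT 92 left out it was 0.66. The keratins showed that spread clearly. Krt8, chosen after its values were seen, read 12.57 in WT 6, 15.40 in WT 92, 14.45 in T1KO 99 and 15.31 in T1KO 65. Krt18 read 14.18, 16.27, 15.72 and 16.53 in the same lines, so that neither keratin separated the genotypes.

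Epithelial genes also had mostly positive differences. Of 25 tested, 0 passed the limma threshold, and 6 were higher and 1 lower at an unadjusted p under 0.05. These are 24% and 4%, against 6.88% and 7.92% of all genes. Above every WT line lay 8 (32%, against 14.2% of all genes). The median was 0.33, with 0.24 in T1KO 99, 0.51 in T1KO 65, -0.16 in WT 6 and 0.16 in WT 92, and it was 0.14 without WT 6, 0.57 without WT 92 and 0.50 without T1KO 99. Ocln, the tight junction protein occludin, read 8.11 and 8.39 in male WT, 8.19 and 8.30 in female WT and 9.16 and 9.25 in T1KO (0.96, limma adjusted p = 0.1748). Spint1, an inhibitor of membrane serine proteases, read 11.97 and 12.26 against 12.46 and 12.69 (0.46), and its second probe differed by 0.096. Cldn3, a claudin of tight junctions, read 10.89 and 11.65 against 12.02 and 12.52 (1.00). Cdh1, which encodes E-cadherin, read 9.17 and 8.96 in male WT, 8.69 in T1KO 99 and 12.33 in T1KO 65, while WT 7 and 94 read 12.78 and 10.26. Its difference was 1.44, and -0.38 without line 65. Cldn3 and Cdh1 were chosen after their values were seen.

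Markers of primitive endoderm, the layer that forms the yolk sac, depended on single lines. Of 19 tested, 0 passed the limma threshold and 0 had an unadjusted p under 0.05, while 18 had a positive difference and 3 lay above every WT line (15.8%, against 14.2% of all genes). The median of 0.36 was 0.17 in T1KO 99 and 0.64 in T1KO 65, and WT 92 stood at 0.32 and WT 6 at -0.32. Without WT 6 the median was -0.049, without WT 92 it was 0.70, and without either T1KO line it was that of the other. Sox17, a transcription factor of endoderm, read 6.80 and 7.31 in male WT, with 1 of 3 arrays above background, and 7.34 and 7.84 in T1KO (0.53). Amn, an endocytic receptor subunit of visceral endoderm, read 7.78 and 8.65 against 8.70 and 9.12 (0.70). Gata6 read 7.51 and 8.45 against 8.27 and 8.85, so its lines overlapped.

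Mesoderm and neural markers were few and dim. Of 11 tested mesoderm and primitive streak genes, 4 were higher and 1 lower at an unadjusted p under 0.05, with 0 past the limma threshold and a median of 0.19 (0.049 in T1KO 99 and 0.33 in T1KO 65). Those shares are 36.4% and 9.09%, against 6.88% and 7.92% of all genes, and without T1KO 99 they were 18.2% and 0%. Above every WT line were 4 of the 11 (36.4%, against 14.2% of all genes) and below 2 (18.2%, against 14.8%). Eomes and Hand1, among the 4 higher at that p, were already counted with trophectoderm, so the lists are not separate. Other lists share genes too, such as Krt8, Krt18 and Krt19 (trophectoderm and epithelial). Fgfr2 is in the trophectoderm and FGF-Erk lists, and Klf4 in the naive and LIF-Stat3 lists. Mesp2, a factor of the presomitic mesoderm, read 7.21 and 7.45 in male WT and 7.95 and 7.96 in T1KO (0.62). Of 13 neural genes, 1 was higher (7.69%, against 6.88% of all genes) and 3 lower (23.1%, against 7.92%) at that p. Again 0 passed the threshold, and the median was -0.13 (-0.30 without WT 92, -0.072 without WT 6 and -0.065 without T1KO 65). Below every WT line in both T1KO lines were 5 of them (38.5%, against 14.8% of all genes). Hes5, a Notch target, read 8.99 and 8.79 in male WT and 7.86 and 8.10 in T1KO (-0.91), but female WT read 7.89 and 8.17 and so overlapped. Tubb3, a neuronal tubulin chosen after its values were seen, read 10.70 and 9.61 in male WT and 9.35 and 8.67 in T1KO (-1.14), below every WT line. Pax6 read 7.94 and 7.17 against 7.04 and 6.99 (-0.54), with 2 of 4 T1KO arrays above background.

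**Figure D4:**
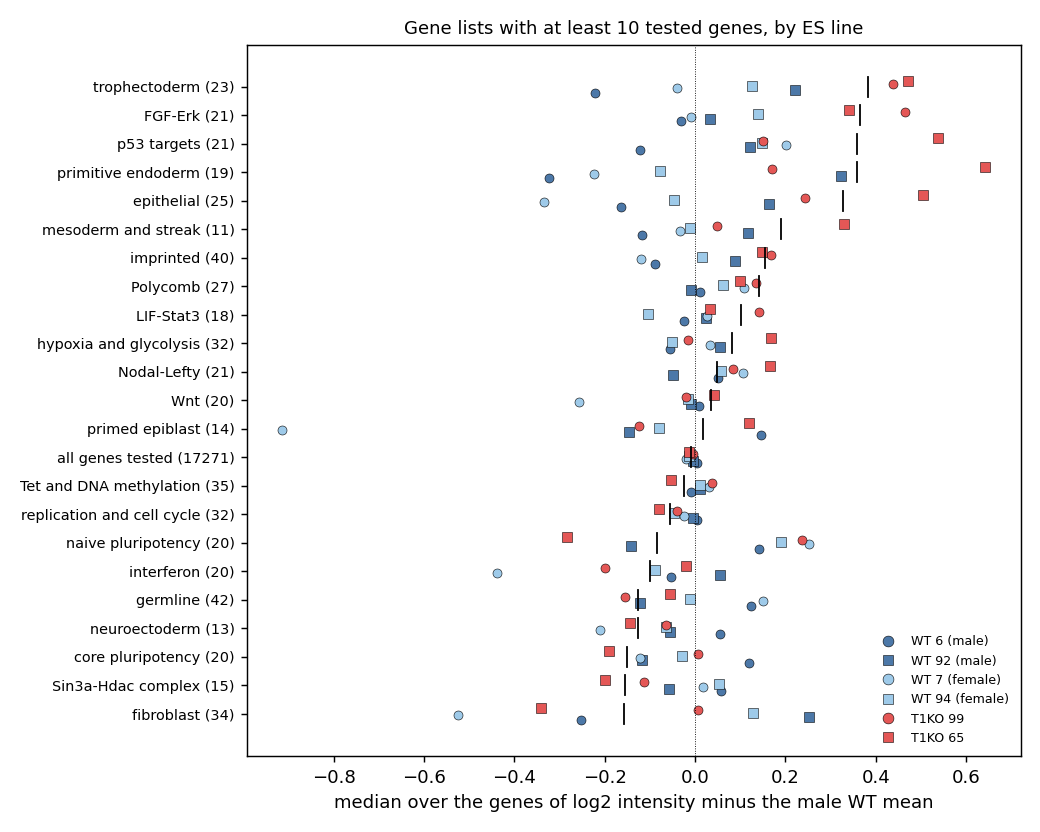
Median over each gene list of log2 Cy3 intensity minus the mean of the male WT lines (x axis), 1 point per line. The black tick is the median of the T1KO minus WT difference, and the number of tested genes is in brackets. Lists with 8 tested genes or fewer, such as Xlr and Hox, are not shown. Trophectoderm stands highest (0.38) and fibroblast and Sin3a-Hdac lowest (-0.16), all genes lie at -0.0091, and single WT lines reach 0.32 (WT 92, primitive endoderm) and -0.91 (WT 7, primed epiblast).

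Differences of the core pluripotency genes spanned a narrower range than those of the naive genes (-0.64 to 0.98) and of the primed genes (-0.79 to 0.96). Among the 20 core factors, 0 passed the limma threshold and 1 was lower at an unadjusted p under 0.05 (5%, against 7.92% of all genes). Their differences ran from -0.30 to 0.47, with a median of -0.15 (0.038 without WT 6, -0.23 without WT 92 and 0.0058 without T1KO 65). Pou5f1 (Oct4) read 15.11 and 14.87 in male WT and 15.08 and 14.93 in T1KO (0.012, SE 0.154). Nanog read 15.28 and 15.35 against 15.20 and 15.18 (-0.12, SE 0.126), and Sox2 12.61 and 12.27 against 12.46 and 11.90 (-0.25, SE 0.239). Of 20 naive pluripotency genes 1 was higher (5%, against 6.88% of all genes) and 2 lower (10%, against 7.92%) at that p. The median was 0.24 in T1KO 99 and -0.28 in T1KO 65, opposite in sign. Klf4, a Kruppel-like factor, read 12.81 and 13.77 in male WT and 14.43 and 14.10 in T1KO (0.98), while Morc1, an ATPase that silences transposons in germ cells, read 12.48 and 12.09 against 11.85 and 11.45 (-0.64). Esrrb and Zfp42, chosen after their values were seen, differed by 0.038 and -0.059. Of 14 genes of the primed epiblast, 0 had such a p, and the median was 0.018.

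Of the FGF-Erk, LIF-Stat3, Nodal and Wnt lists, the FGF-Erk list had the greatest median. It was 0.36 over 21 tested genes, 0.47 in T1KO 99 and 0.34 in T1KO 65. None passed the limma threshold, and 5 were higher and 2 lower at an unadjusted p under 0.05. These are 23.8% and 9.52%, against 6.88% and 7.92% of all genes. Above every WT line lay 6 (28.6%, against 14.2% of all genes). Without WT 6 the median was 0.19. Fgfr1, the main FGF receptor of ES cells together with Fgfr2, read 12.58 and 12.82 in male WT, 12.69 and 12.57 in female WT and 13.23 and 13.53 in T1KO (0.68). Its probes disagreed in sign: another gave 0.54, above every WT line, and a dimmer one -0.32, below every WT line. Fgfr3 read 7.93 and 8.19 against 8.53 and 8.95 (0.68), overlapping WT 7. Fgfr2 read 8.21 and 8.10 against 8.38 and 8.66 (0.36). Spry1, a feedback inhibitor of the pathway, read 11.06 and 10.98 against 11.71 and 11.50 (0.59), while the Erk phosphatase gene Dusp5 read 7.72 and 7.64 against 7.24 and 7.43 (-0.35).

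In the LIF-Stat3 pathway, which sustains self-renewal, 3 of 18 genes were higher and 0 lower at that p, with 0 past the limma threshold and a median of 0.10. The share higher was 16.7%, against 6.88% of all genes, and 4 lay above every WT line (22.2%, against 14.2%). Without T1KO 99, 2 were higher and 1 lower. Jak1, the receptor-associated kinase, read 11.44 and 11.68 in male WT, 11.88 and 11.82 in female WT and 12.28 and 12.38 in T1KO (0.77, limma adjusted p = 0.1801). The transcription factor Stat3 differed by -0.17. Nodal signalling genes had differences of both signs, with 0 past the threshold and a median of 0.049. Above and below every WT line lay 2 (9.52%) and 3 (14.3%), against 14.2% and 14.8% of all genes. At that p, 4 of 21 were higher (19%) and 2 lower (9.52%), against 6.88% and 7.92% of all genes. The secreted inhibitors Lefty1 and Lefty2 were the lower ones. Lefty1 read 14.77 and 14.71 in male WT and 13.78 and 14.03 in T1KO (-0.83), but female WT 7 read 13.69. Lefty2 read 14.06 and 13.61 against 13.51 and 13.06 (-0.55). The receptor gene Acvr1b read 10.101 and 10.25 against 10.71 and 10.77 (0.56), and the effector Smad3 read 10.54 and 11.03 against 11.30 and 11.66 (0.69). Of 20 Wnt genes, 0 were higher and 1, Tcf7 (-0.29), lower at that p (5%, against 7.92% of all genes). None passed the threshold, and the median was 0.036.

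Targets of p53 had a median of 0.36 over 21 genes, but it was 0.15 in T1KO 99 and 0.54 in T1KO 65. Of them 5 were higher (23.8%, against 6.88% of all genes) and 0 lower (against 7.92%) at an unadjusted p under 0.05. Above every WT line lay 6 (28.6%, against 14.2%), and 0 passed the limma threshold. Without T1KO 65 the median was 0.15, and without T1KO 99 it was 0.54. Tnfrsf10b, a death receptor, read 11.04 and 11.59 in male WT and 11.88 and 12.34 in T1KO (0.79), and Zmat3, an RNA-binding protein, 11.73 and 11.68 against 12.14 and 12.24 (0.49), overlapping WT 7. Perp, a desmosomal tetraspan protein chosen after its values were seen, read 11.26 and 12.28 against 12.87 and 12.87 (1.101).

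The Sin3a-Hdac complex, with which Tet1 associates, had a median of -0.16 over 15 genes (-0.094 without WT 6 and -0.24 without WT 92). Below every WT line in both T1KO lines were 6 of them (40%, against 14.8% of all genes), and 0 passed the limma threshold. At an unadjusted p under 0.05, 1 was higher (6.67%, against 6.88% of all genes) and 2 lower (13.3%, against 7.92%). Sin3a, the scaffold, read 11.78 and 11.55 in male WT, 11.54 and 11.74 in female WT and 11.15 and 11.07 in T1KO (-0.56). Sap130, an associated subunit, read 12.75 and 12.76 against 12.42 and 12.31 (-0.39). Sin3b, the alternative scaffold, read 15.53 and 15.24 against 15.89 and 16.20 (0.66), overlapping WT 7. In the female DKO pairs Sin3a gave -0.43 and -0.64 and Sap130 -0.64 and -0.47.

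Of the Polycomb, Tet and methylation, and germ cell lists, again 0 genes passed the limma threshold. Of 27 Polycomb genes, 3 were higher (11.1%, against 6.88% of all genes) and 0 lower (against 7.92%) at that p, with a median of 0.14. Above every WT line lay 4 (14.8%, against 14.2% of all genes) and below 3 (11.1%, against 14.8%). Bmi1, a ring finger subunit of Polycomb repressive complex 1, read 8.55 and 8.32 in male WT and 9.10 and 9.18 in T1KO (0.71), with WT 7 higher still at 9.50. Of 35 Tet, methyltransferase and related genes, 0 were higher and 2 lower (5.71%, against 7.92% of all genes). These were Tet1 and Trim28, a co-repressor of zinc finger proteins (-0.38). The maintenance methyltransferase Dnmt1 differed by -0.20, and Dnmt3b, chosen after its values were seen, by -0.034. Germ cell genes, many of which are known to be silenced by promoter methylation, had 1 higher (2.38%) and 3 lower (7.14%) of 42. All genes gave 6.88% and 7.92%. The germ cell median was -0.13, which was 0.035 without WT 6, -0.24 without WT 92 and -0.056 without T1KO 99. Smc1b, the meiotic cohesin subunit, read 11.83 and 10.80 in male WT and 9.87 and 10.16 in T1KO (-1.30), and Fkbp6, a chaperone of the piRNA pathway, 8.93 and 8.23 against 7.81 and 7.73 (-0.81). Both lay below every WT line.

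Of 40 listed imprinted genes, 4 were higher (10%) and 1 lower (2.5%) at an unadjusted p under 0.05, against 6.88% and 7.92% of all genes. Above every WT line lay 5 (12.5%, against 14.2% of all genes) and below 2 (5%, against 14.8%). Impact (-1.15) and Zim3 (-1.09), described above, are not in this list. The list's median was 0.15, with 0.17 in T1KO 99 and 0.15 in T1KO 65, and was 0.060 without WT 6 and 0.24 without WT 92. Ppp1r9a, which encodes neurabin, read 9.73 and 9.98 in male WT and 10.40 and 10.41 in T1KO (0.55). Calcr, the calcitonin receptor gene, read 7.26 and 6.87, with 2 of 3 arrays above background, against 7.59 and 7.90 (0.67). Cdkn1c, a cyclin-dependent kinase inhibitor, read 10.67 and 11.04 against 11.45 and 11.51 (0.63). In all of the lists of this paragraph and the next, 0 genes passed the limma threshold.

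At an unadjusted p under 0.05, 6.88% of all genes were higher and 7.92% lower, the background for each list of this paragraph. Replication and cell cycle genes had 0 higher and 4 lower (12.5%) of 32, and a median of -0.056. Above every WT line lay 4 (12.5%, against 14.2% of all genes) and below 2 (6.25%, against 14.8%). Cdk1, the mitotic kinase, read 11.60 and 11.40 in male WT and 10.95 and 10.97 in T1KO (-0.54), and Cdc6, a licensing factor, 9.86 and 9.89 against 9.41 and 9.51 (-0.42). Second probes differed by -0.14 for Cdk1 and -0.0020 for Cdc6. Glycolysis and hypoxia genes had 2 higher (6.25%) and 1 lower (3.12%) of 32. Their median was 0.082, with Tpi1 at 0.45 and the glucose transporter gene Slc2a3 at 0.50. Interferon response genes had 0 higher and 2 lower (10%) of 20 and a median of -0.10, which was 0.10 without WT 92. Of these, Ifitm1 read 15.19 and 14.76 against 14.35 and 13.96 (-0.82). Ifit2, not well above background on any T1KO array, differed by -0.32, and by -1.15 to -0.20 under the other settings. Of 34 fibroblast genes, 1 was higher (2.94%) and 2 lower (5.88%). The median was -0.16, with 0.0065 in T1KO 99 and -0.34 in T1KO 65, and was -0.41 without WT 6 and 0.13 without WT 92. Few Hox genes were above background: 7 were tested and 0 had such a p. Hoxa6, at background on all male WT arrays, differed by 0.21, and by 0.12 to 0.58 under the other settings.

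Lists on which the female WT lines stood apart had wide ranges. The 3 tested Xlr genes, X-linked lymphocyte-regulated genes, lay below every WT line, as did 14.8% of all genes. Xlr3b, Xlr5b and Xlr5c were above background on 1, 0 and 2 of the 4 T1KO arrays and were tested through their WT signal, so that their lower level was partly fixed by the filter. Xlr3b read 7.90 and 7.94 in male WT, 9.62 and 12.25 in female WT and 7.10 and 6.97 in T1KO. For the 8 genes of the 2-cell-like state, the T1KO median was 0.65 in line 99 and -0.23 in line 65, while WT 7 stood at 3.85. Zscan4f, one of them, read 10.12 and 9.34 in male WT, 14.19 and 12.10 in female WT and 10.81 and 9.58 in T1KO.

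The female DKO lines and their WT partners share no line with the T1KO against male WT comparison, so their ratios were read beside it. Of the 54 named genes at least 1 higher in T1KO, 33 had a positive ratio in both female pairs (61.1%), against 33.8% of all 13896 named genes with both ratios. Of 44 named genes at least 1 lower, Tet1 left out, 20 had a negative ratio in both (45.5%, against 35.3% of all). Without Fbxo33, Inpp5b and Vapb, whose values rest on the spots named above, these were 18 of 41 (43.9%). Median ratios were 0.33 and 0.34 for the higher and -0.11 and -0.26 for the lower named genes. With the probes that have no gene name included, the lower genes were close to the background. Of 65, Tet1 left out, 23 had a negative ratio in both pairs (35.4%, against 34.6% of all 17269 genes), with medians of 0.0070 and -0.16. Of all 66 higher genes, 39 had a positive ratio in both (59.1%, against 34.2%), with medians of 0.35 and 0.32. DKO cells lack Tet2 as well and all DKO RNA was in Cy5, so a dye effect and the loss of Tet2 cannot be told apart from that of Tet1 there. Rgcc, a regulator of the cell cycle, and Trh, the thyrotropin-releasing hormone gene, were both chosen after their values were seen. They are examples of the 20 named lower genes with a negative ratio in both pairs, whereas 7 of the 44 had a positive ratio in both. Rgcc read 13.12 and 13.13 in male WT and 11.91 and 11.42 in T1KO (-1.46), with -2.82 and -0.83 in the female pairs. Trh read 15.48 and 14.36 against 13.55 and 13.75 (-1.27), with -1.27 and -0.99.

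**Figure D5:**
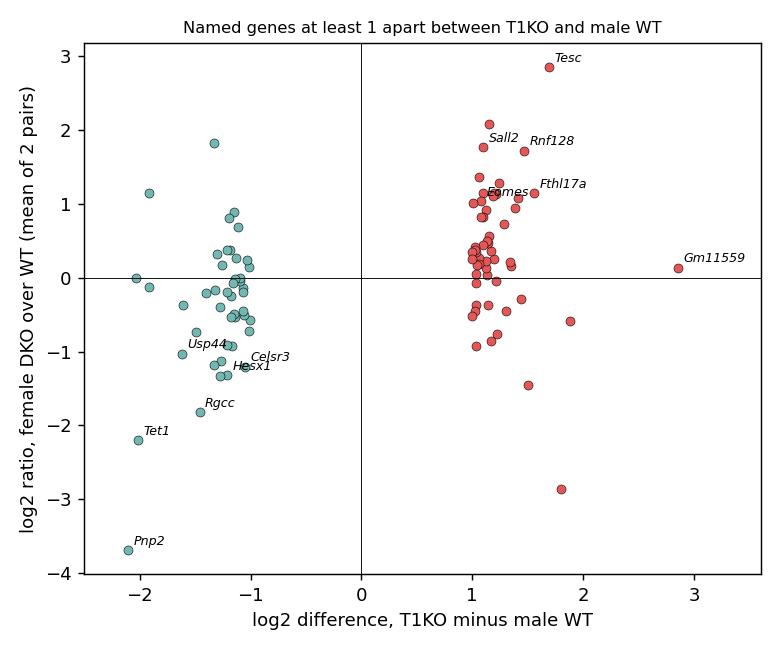
For each named gene at least 1 higher (red) or lower (green) in T1KO, the T1KO minus male WT log2 difference (x axis) is plotted against the mean log2 ratio of the 2 female DKO over WT pairs (y axis). Of the 54 higher genes 33 have a positive ratio in both pairs, Gm11559 lies near 0 on the y axis, and Tet1, Pnp2, Rgcc and Usp44 lie lower on both axes.

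On the arrays that paired T2KO 16 with T1KO 65, T1KO 65 is the same line and the same signal as in the main comparison, so these ratios are set beside it only as values. Genes chosen as higher or lower partly through that signal lean towards a ratio of the opposite sense by the choice alone. The share over all genes was not counted. For Tet1 the ratio was 1.99 and for Tet2 -1.69. Rnf128 gave -1.20, Fthl17a -2.17, Sall2 -2.20, Eomes -0.47 and Celsr3 1.01. Of the 54 named higher genes, 21 had a ratio of at least 1 in the opposite sense, 3 in the same sense, and 10 lay within 0.5 of 0. Of the 45 named lower genes the counts were 16, 0 and 21, and 16, 0 and 18 of 42 without Vapb, Inpp5b and Fbxo33. Among those near 0 were Defa23 (-0.079), Vmn1r87 (0.061), Clca3b (0.20) and Gm11559 (0.12), at which T2KO 16 therefore read close to T1KO 65.

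The 2 T1KO lines differed most at genes that did not separate the genotypes. Apart from Vapb and Inpp5b, the difference of line 65 minus line 99 was -3.86 at H2-T18, a class Ib histocompatibility gene, 3.78 at Eif2s3y, -3.73 at Tmem40, 3.64 at Cdh1 and -3.04 at Pnp2. H2-Eb1, a class II histocompatibility gene, differed by -2.76, at 8.21 in line 65 and 10.97 in line 99, and it also varied among WT lines, from 8.84 to 11.08.

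Genes near Tet1 were also counted by position. Within 10 Mb of the Tet1 probe, 15 of 109 other tested genes had such a p (unadjusted, under 0.05), a share of 13.8% where all genes without Tet1 gave 14.8%, and 1, Sgpl1, was at least 1 apart. Sgpl1 lies 1.71 Mb from that probe. Tacr2, a tachykinin receptor gene 0.546 Mb away, read 9.65 and 9.77 in male WT and 9.21 and 9.22 in T1KO (-0.49), and Fam13c, 7.73 Mb away, 8.92 and 8.57 against 7.84 and 8.04 (-0.80). Second probes gave -0.12 for Tacr2 and, opposite in sign, 0.26 for Fam13c, and both overlapped WT. Both were chosen after their values were seen. The female DKO pairs gave 0.073 and -0.040 for Fam13c and 0.01 and 0.003 for Tacr2. On chromosome X, 15 of 673 tested genes were at least 1 apart, against 131 of all 17270 without Tet1, 6.69% lay above every WT line (against 14.2% of all genes) and 21% below (against 14.8%). The female WT lines and T1KO 99, whose Y-linked genes were low, enter these shares, and their part was not tested.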

How the data were processed

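Per the file headers, the deposited files give each spot's mean intensity, median local background intensity and flags as written by Agilent Feature Extraction 10.1.1.1, on a linear scale and not normalized between arrays. RNA labelling started from 200 ng of total RNA, per the labels. From the Cy3 intensities, background was corrected with normexp (offset 50, fitted without gene spots at or below local background), the 10 Cy3 channels were quantile normalized on the log2 scale, outlier and control spots were dropped, and spots of a probe and repeat arrays of a line were averaged. Tools were R 4.3.3, limma 3.58.1, data.table (version 1.17.8), jsonlite 2.0.0 and, for plots, matplotlib 3.10.9.

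Probes well above background on all arrays of T1KO or of male WT were tested (21609), and each gene took its brightest probe (17271 genes, 13898 named). Limma (lmFit, eBayes, two-sided, Benjamini-Hochberg at 0.05) was fitted to 6 line means in 3 groups, and the fit was tested on simulated data. The number of arrays limits the precision. Within-array log2 ratios (Cy5 over Cy3, normexp and loess) were used for DKO over WT and T2KO over T1KO. A RefSeq accession gave the name of 26581 of 39429 probes. Coordinates of probes come from the array design (mm9).

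Genes named were, by rule, the Tet genes, the 12 higher and 12 lower genes of smallest unadjusted p among those at least 1 apart (none passed the threshold), a few listed genes of interest, and up to 2 genes of smallest p in each of 26 lists; others are said to be chosen after their values were seen or illustrate a list. The members, lists and rules were chosen with earlier results of these data known. The authors' table of processed values was not used here.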

Additional observations from a re-analysis of the deposited data

How the results depend on the processing

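No paired analysis was possible because the replicate numbers count repeat arrays of a line and pair no samples across genotypes. The count of 0 genes past the limma threshold became 5, all lower, with the scanner software's processed Cy3 signal (smallest adjusted p 0.02137), and 226, of which 96 higher and 130 lower, with all arrays kept and line as a random block (smallest adjusted p 0.0004467). Under the other settings, and with each line left out, it was 0, with a smallest adjusted p of 0.06342 to 0.3864. Tet1 was called only with the random block (-2.02, limma adjusted p = 0.0004467), and its difference lay between -2.17 and -1.78 under every setting. The random block fit draws its p-values on repeat arrays as well as on lines. Each genotype still has only 2 lines, so the calls of that fit rest on more values than there are lines. Genes at least 1 higher and above every WT line numbered 15 with normexp fitted on all spots, 25 with no background correction and 145 with the processed signal, and 28 to 145 with a line left out. Such lower genes numbered 26 with normexp on all spots and 199 with the processed signal, and 39 to 111 with a line left out. With a line left out the rule asks fewer lines to be apart, so those counts are not comparable with the main ones. The cause of the other shifts was not tested. Leaving out spots at or below their local background, an alternative chosen after seeing the data, gave 40 and 47. Genes called between female and male WT numbered 255 with the random block and 0 to 1 with a line left out.

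Of single-gene results, 1911 kept their direction and side of the threshold, 35 passed it and 21 changed sign. The sign changed for Pou5f1 at -0.16 (processed signal) and -0.017 (first array of each line), for Esrrb at -0.036 (processed signal) and for Tdgf1 at 0.069 (mean of probes). With each line left out in turn, it changed within ranges of -0.11 to 0.13 for Pou5f1, -0.19 to 0.27 for Esrrb, -0.53 to 0.024 for Sox2, -0.088 to 0.285 for Dazl and -0.28 to 0.064 for Ankrd37. The ranges were -2.35 to 1.43 for Eif2s3y, -0.38 to 3.26 for Cdh1, -0.53 to 2.30 for Krt8, -0.14 to 1.95 for Krt18, -0.43 to 0.36 for Dnmt3b and -0.41 to 0.29 for Zfp42. Medians of a list or of all genes moved by no more than the SD of their values in the 2 T1KO lines in 428 cases, and by more in 57. That SD holds no WT line, and leaving out a T1KO line keeps a move below it nearly by construction. These counts are therefore no measure of stability. Probes not above background have no measured level here, and 2 lines a genotype on 1 slide each limit every comparison.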
